A study of Gallus gallus with 14 samples.

Results

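The proteasome genes described here are the symbols of the deposited chicken retina table that begin with PSMA, PSMB, PSMC, PSMD, PSME, PSMF or PSMG followed by a number, where the mean over 14 libraries reached 1 CPM. CPM are read counts scaled to 1000000 reads. Of 18631 rows, 38 symbols matched and all 38 reached that level, among 11005 genes that did so. One of the 38, PSMC3IP, is named for its binding to the subunit PSMC3 and is a meiotic recombination factor, so 37 of the 38 encode proteasome subunits, assembly factors, activators or an inhibitor. The rule uses the mean over all libraries and no difference between groups.

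The libraries were made from total RNA of 7 retinas of eyes that had worn a -10 dioptre lens for 1 day and of 7 control retinas, all from wild-type White Leghorn chickens with a listed age of 3 days. Such a lens, of negative power, puts the plane of focus behind the retina, and a chick eye then grows longer; 1 day covers the early part of that response. In the titles, the lens libraries carry numbers from 1 to 4 and from 12 to 14, and each such set was also compared with the 7 controls and with the other set. The labels say neither how control eyes were handled nor whether each retina came from its own bird, so p-values measure only the scatter among these samples, part of which may be technical.

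The proteasome is the protease that removes proteins tagged with ubiquitin. Its barrel-shaped core stacks rings of alpha subunits (PSMA genes), which gate the entry, on rings of beta subunits (PSMB genes), some of which cut the chain. A regulatory particle caps the barrel: its base holds a ring of ATPases (PSMC genes) that unfold the substrate, and its lid, with PSMD14, removes the ubiquitin. Dedicated chaperones build these pieces, and PSME proteins are alternative caps. When proteasome activity falls in mammalian cells, the transcription factor NFE2L1 raises these genes together. In mammalian photoreceptors the proteasome is known to remove misfolded visual pigment.

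The members fell into 7 alpha subunits, 5 beta subunits, 5 ATPases, 3 other base subunits, 7 lid subunits, 7 assembly chaperones and 3 activators or inhibitors. Of 48 proteasome symbols looked for, 37 were in the table, and those not found were not analysed here. Among them were the catalytic subunit genes PSMB5 and PSMB6, the ATPase gene PSMC4, PSMD8, PSME1, PSME2 and PSMB8 to PSMB10, which are inducible in mammals. Whether the symbols not found are missing from the chicken genome or only from this table was not examined. The members lie on 19 chromosomes of GRCg6a, with 7 on chromosome 5, 6 on chromosome 27 and none on Z or W.

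Each library's CPM rested on a total of 27.7 to 49.3 M reads (M, 1000000), of which 8.64 to 15.3 M lay on genes of the table. The members' own values rested on 34 to 3067 reads per gene and library, with a median of 352. Of 15 retinal marker genes, 14 were in the table and all 14 reached 1 CPM; their summed level was 1999 to 2537 CPM in lens libraries 1 to 4, against 1662 to 2224 CPM in those numbered 12 to 14 and 1851 to 2275 CPM in controls. Of 8 pigment epithelium markers, 2 reached 1 CPM, and the 8 summed to 12.7 to 21.2, 13.2 to 15.4 and 14 to 19.1 CPM in the same groups. Markers of sclera and cornea (7 in the table, 2 at 1 CPM or more) summed to 7.51 to 9.93, 8.82 to 10.1 and 9.45 to 12.1 CPM. Those of oligodendrocytes (2 of 5) summed to 111 to 158, 148 to 159 and 95 to 205 CPM, and those of leukocytes (2 of 6) to 5.58 to 8.35, 5.37 to 8.50 and 4.22 to 7.76 CPM. Of 7 blood markers looked for, only SLC4A1 was in the table, listed at 0, so blood could not be assessed. In lens libraries 1 to 4 against control, limma called 2 of the 14 retinal markers higher, where 9.40% of all genes were. It called 1 of the 2 tested markers of sclera and cornea lower, where 4.05% of all genes were. The part of all these markers in the members' values was not tested. In bulk retina, a change in cell numbers and a change in RNA per cell cannot be told apart.

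As a group, the proteasome genes took an almost constant share of the retinal reads. Their summed level was 504 to 525 CPM in lens libraries (514 ± 7.70, SD, n = 7) and 490 to 523 CPM in control libraries (505 ± 13.3, SD, n = 7). Lens libraries 1 to 4 held 511 to 525 CPM and lens libraries 12 to 14 held 504 to 518 CPM. These ranges overlap throughout, and the highest of the 14 sums is 1.07 times the lowest. The sum over all genes of the table also varied little, at 298680 to 319250 CPM. Scaling each library to the same number of reads constrains that total, so it cannot show whether the steadiness is particular to the members. Sums of the lists of related genes described below ranged more widely for their level, as for autophagy genes at 515 to 576 CPM over the same libraries. Whether the members were steadier than other gene sets of their size and level was not tested. Within the controls, the coefficient of variation (SD over mean) of single members had a median of 9.26%, from 4.25% for PSMD13, a lid subunit, to 35% for PSMC3IP; its median over all genes tested was 11.6%.

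**Figure D1:**
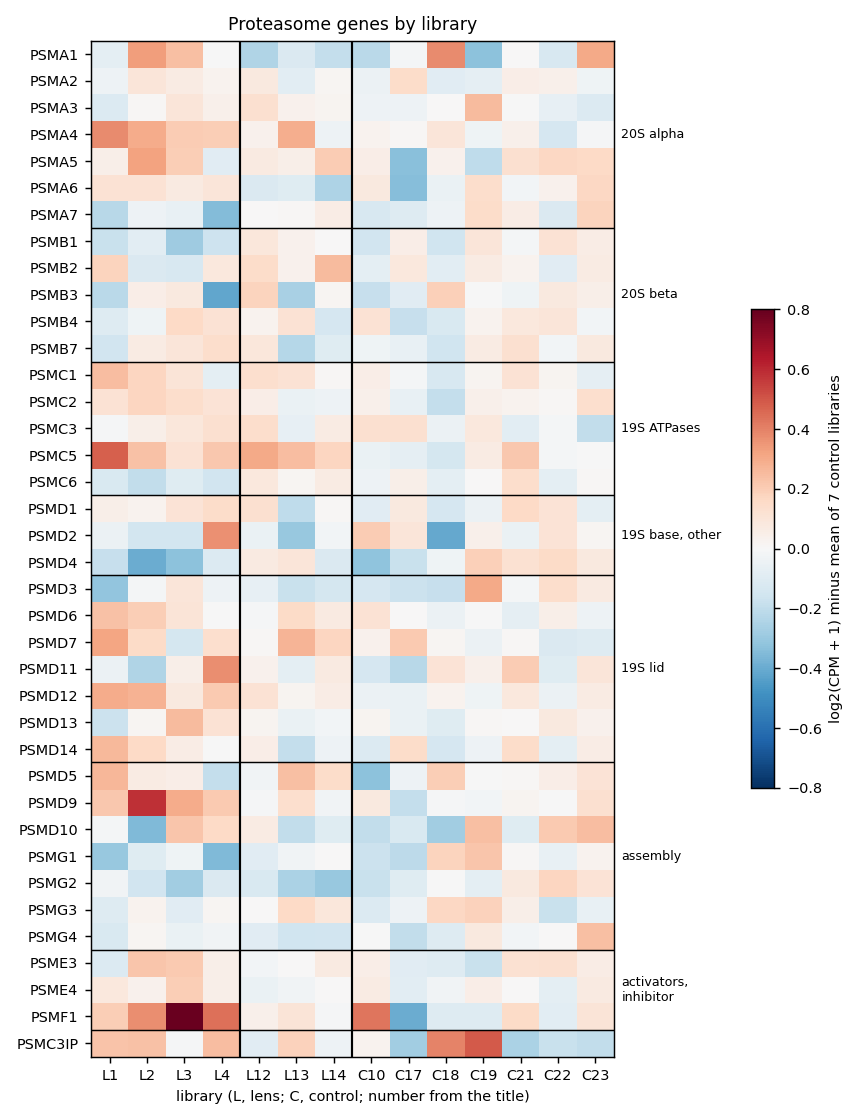
Level of each of the 38 members in each library, as log2(CPM + 1) minus the mean of the 7 control libraries, for lens libraries 1 to 4 (L1 to L4), lens libraries 12 to 14 (L12 to L14) and controls (C), with genes ordered by role. The strongest reds are single cells, PSMF1 in L3 (0.79) and PSMD9 in L2 (0.59). PSMD9 in L1, L3 and L4 (0.22, 0.30 and 0.21) is paler than PSMC3IP in control C19 (0.49). Most rows change colour from library to library within a group.

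The values are not divided by gene length, so they do not rank subunits by transcript number. By CPM, the highest members were PSME4, which encodes a large ATP-independent cap of the core, the ATPase gene PSMC6 and PSMD1, a scaffold of the base. PSME4 had 62.3 to 74.1 CPM in lens libraries (median 66.1) and 60.8 to 68.0 CPM in controls (median 64.7). The fold change was 0.04 on the log2(CPM + 1) scale, on which all fold changes here are given, with a 95% interval of -0.06 to 0.14. The lowest members were PSMG4, an assembly chaperone, with 0.965 to 1.22 CPM in lens and 0.911 to 1.59 CPM in control libraries, PSMC3IP, and PSMD10, a base chaperone also known as gankyrin, with 1.52 to 2.75 CPM in lens and 1.66 to 2.81 CPM in control libraries.

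Over all 7 lens against 7 control libraries, limma with Benjamini-Hochberg adjustment over all 11005 genes called 0 of the 38 members at an adjusted p under 0.05, as it called 0.00% of all genes. At an unadjusted p under 0.05 there were 4 members higher and 1 lower, or 5 of 38, where 14.7% of all genes passed. The members' median fold change was 0.03 and that of all genes 0.02, with 24 of 38 members above 0, beside 56.4% of all genes. With median-of-ratios, trimmed mean and quantile scaling the members' median was 0.011, 0.0095 and 0.0036. For 37 of 38 members the 95% interval of the fold change lay within 0.5 of 0 on the log2(CPM + 1) scale. The median distance from the estimate to either bound was 0.15. That scale understates the change of low genes, so for the lowest members the interval in CPM itself is wider.

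The ATPase gene PSMC5 had the smallest p in that comparison. It stood at 11.3, 9.40, 8.58 and 9.26 CPM in lens libraries 1 to 4, at 9.89, 9.50 and 8.94 CPM in lens libraries 12 to 14, and at 7 to 9.27 CPM in controls (median 7.72). All 7 lens libraries lay above the control median, yet the highest control exceeded 3 of them. The fold change was 0.25 (95% interval 0.11 to 0.40, adjusted p = 0.172), and it was 0.26 in lens libraries 1 to 4 (adjusted p = 0.0589) and 0.24 in lens libraries 12 to 14 (adjusted p = 0.938) against the same controls. In lens libraries 1 to 4, PSMC5 passed the threshold in 2 of 23 alternative runs (adjusted p 0.0341, without control 21, to 0.186).

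PSMG2 was the member with an unadjusted p under 0.05 in the lower direction. Its product pairs with that of PSMG1 to start the assembly of the alpha ring. It stood at 5.97 to 7.44 CPM in lens libraries (median 6.73) and 6.6 to 8.67 CPM in controls (median 7.57), with all 7 lens libraries below the control median. The fold change was -0.18 (95% interval -0.33 to -0.03, adjusted p = 0.273).

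In lens libraries 1 to 4 against control, 2 members rose and 0 fell, out of 38, where 13.4% of all genes were called, 9.40% higher and 4.05% lower. On the deposited scale, 2 and 0 of 38 are no more than these shares of all genes. At an unadjusted p under 0.05 there were 8 of 38 members, 5 higher and 3 lower, where 30.2% of all genes passed. The members' median fold change was 0.05, beside 0.04 over all genes, with 28 of 38 members above 0, beside 58.4% of all genes. With median-of-ratios, trimmed mean and quantile scaling the members' median was 0.011, 0.0096 and 0.0044, and that of all genes 0.0031, 0.0014 and 0.00085.

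The alpha subunit gene PSMA4, whose yeast counterpart helps close the gate of the core, rose. It had 23.6, 22.3, 20.7 and 20.7 CPM in lens libraries 1 to 4, 18.4, 22.2 and 17.4 CPM in lens libraries 12 to 14, against 16.2 to 19.3 CPM in controls (median 18.1). All of lens libraries 1 to 4 exceeded every control, and of lens libraries 12 to 14 only library 13 did. PSMA4 averaged 21.8 ± 1.39 CPM in lens libraries 1 to 4 (SD, n = 4) and 17.9 ± 0.944 CPM in controls (SD, n = 7), a fold change of 0.27 (SE 0.061, adjusted p = 0.0137). It spans 4097843 to 4102976 on chromosome 10 of GRCg6a.

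PSMD9, a chaperone that helps assemble the ATPase base, rose as well. Its levels were 6.27, 8.39, 6.68 and 6.24 CPM in lens libraries 1 to 4, 5.22, 5.87 and 5.15 CPM in lens libraries 12 to 14, against 4.47 to 5.84 CPM in controls (median 5.24). The first lens set lies above every control, while the second lies within or just above their range. The means were 6.90 ± 1.02 CPM (SD, n = 4) in lens libraries 1 to 4 and 5.27 ± 0.427 CPM in controls (SD, n = 7), a fold change of 0.33 (SE 0.090, adjusted p = 0.0298). Without lens library 2, which was the highest, the fold change was 0.24 (adjusted p = 0.103), without lens library 3 the adjusted p was 0.0674, and without control 17 it was 0.0512. The gene spans 5989102 to 5991825 on chromosome 15.

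**Figure D2:**
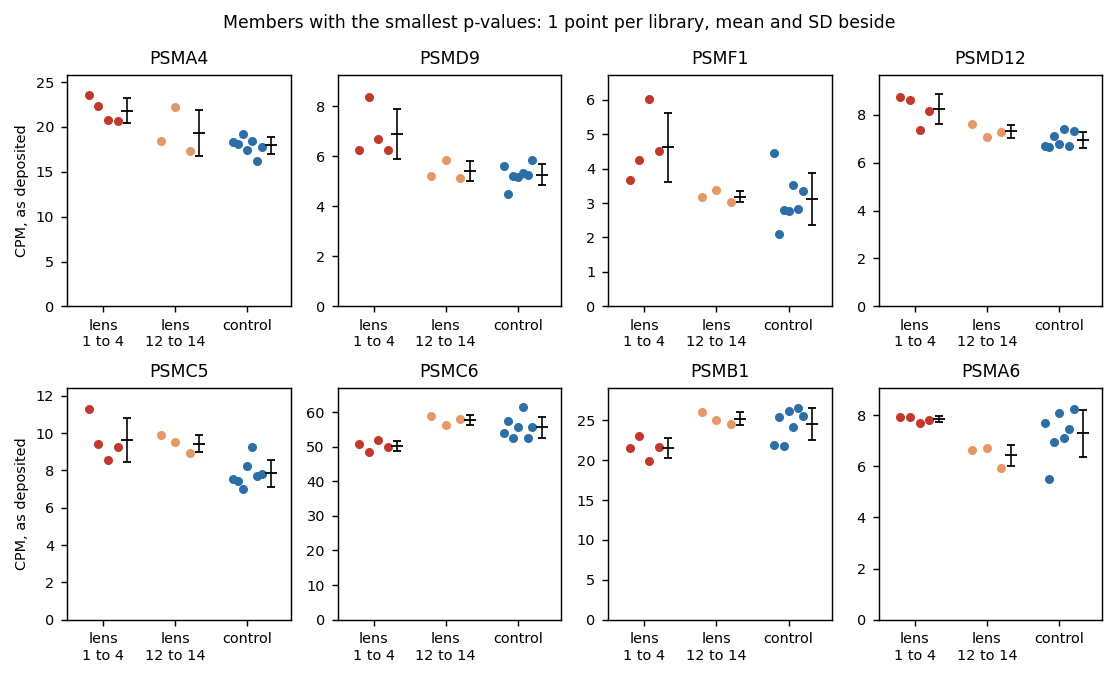
Deposited CPM of 8 members among those with the smallest p-values, 1 point per library, with the mean and SD beside each group, for lens libraries 1 to 4, lens libraries 12 to 14 and controls. PSMA4 and PSMD9 lie above all controls in lens libraries 1 to 4, PSMC6 lies below them, and the other groups overlap with the controls.

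Groups that did not overlap with the controls were counted as well: PSMA4 and PSMD9 were higher in lens libraries 1 to 4 than in any control, where 7.05% of all genes were, and PSMC6 was lower, where 2.73% were. The ATPase gene PSMC6 had 50.9, 48.3, 51.8 and 49.8 CPM in lens libraries 1 to 4, 59.0, 56.2 and 58.0 CPM in lens libraries 12 to 14, against 52.4 to 61.4 CPM in controls (median 55.6). Its fold change in lens libraries 1 to 4 was -0.14 (95% interval -0.25 to -0.03, adjusted p = 0.0817). It passed the threshold with 3 other scalings, at -0.18 by median of ratios, -0.19 by trimmed means and -0.16 by quantiles. In all, PSMC6 passed in 4 of 23 alternative runs (adjusted p up to 0.198).

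The largest fold change of the 38 belonged to PSMF1, which did not pass the threshold. PSMF1 encodes PI31, an inhibitor of the core in vitro that also links proteasomes to transport along axons in fly and mouse neurons. It stood at 3.66, 4.25, 6.04 and 4.51 CPM in lens libraries 1 to 4, 3.17, 3.37 and 3.04 CPM in lens libraries 12 to 14, against 2.09 to 4.47 CPM in controls (median 2.83). Control 10, the highest control, lies above lens libraries 1 and 2, and the fold change was 0.45 (95% interval 0.14 to 0.76, adjusted p = 0.0524). Without control 10 it was 0.52 (adjusted p = 0.0191). PSMF1 passed in 6 of 22 alternative runs (adjusted p up to 0.171).

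The lid subunit gene PSMD12 had 8.76, 8.62, 7.38 and 8.16 CPM in lens libraries 1 to 4, against 6.64 to 7.41 CPM in controls (median 6.76), a fold change of 0.21 (adjusted p = 0.0574). Only lens library 3 lay within the control range. In the lower direction, PSMB1, a non-catalytic beta subunit, averaged 21.5 ± 1.26 CPM in lens libraries 1 to 4 and 24.5 ± 1.97 CPM in controls (SD, n = 4 and 7; -0.18, adjusted p = 0.0993). PSMD4, a ubiquitin receptor of the base, averaged 11.8 ± 1.15 and 14.3 ± 1.92 CPM in the same groups (-0.25, adjusted p = 0.104). The groups overlapped in both genes. PSMD4 passed the threshold without control 10, with library weights, and with median-of-ratios, trimmed mean and quantile scaling. PSMB1 passed with the same scalings.

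By role, subunits of the same ring did not take the same sign. In lens libraries 1 to 4, 6 of 7 alpha subunits were above 0 (median 0.10, 1 called higher) and 3 of 5 beta subunits were (median 0.0045, none called), among them PSMB7 at 0.04, which encodes the trypsin-like catalytic subunit. The ATPases had 4 of 5 above 0 (median 0.11) and the lid 6 of 7 (median 0.12), with none called, and the 3 other base subunits had 2 above 0 (median 0.0064, none called). The assembly chaperones had 3 of 7 above 0 (median -0.04, 1 called higher), and all 3 activators and inhibitors were above 0 (median 0.09), with none called. The median over all genes, 0.04, with 58.4% of all genes above 0, is the level to read these against.

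Summed over the 7 lid genes, the levels were 74.5 to 78.7 CPM for lens libraries 1 to 4, 72.3 to 73.1 CPM for lens libraries 12 to 14 and 68.4 to 73.3 CPM for controls. The lid was the one role whose sum did not overlap between lens libraries 1 to 4 and the controls. These sums are on the deposited scale, on which the median of all genes was 0.04 in that comparison. The gap was narrow, with 74.5 CPM in lens library 3 and 73.3 CPM in control 21. Against the control mean, the median of all genes was 0.06 in lens library 3. It was -0.02 in control 17, whose lid sum was 73.2 CPM. Some related lists, described below, had sums apart as well. VCP and its cofactors (239 to 252 against 222 to 237 CPM) and autophagy genes (566 to 576 against 515 to 549 CPM) were higher. Cytosolic chaperones (796 to 1076 against 1201 to 1724 CPM) were lower, and the associated, NFE2L1 and ubiquitin sums overlapped. The beta ring summed to 50.4 to 53.0 CPM in lens libraries 1 to 4, against 53.3 to 58.8 CPM in numbers 12 to 14 and 50.4 to 57.4 CPM in controls. The ATPases summed to 115 to 119, 119 to 127 and 109 to 124 CPM. No test was made of these sums, which the genes with most reads dominate, and they were not computed with other scalings.

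**Figure D3:**
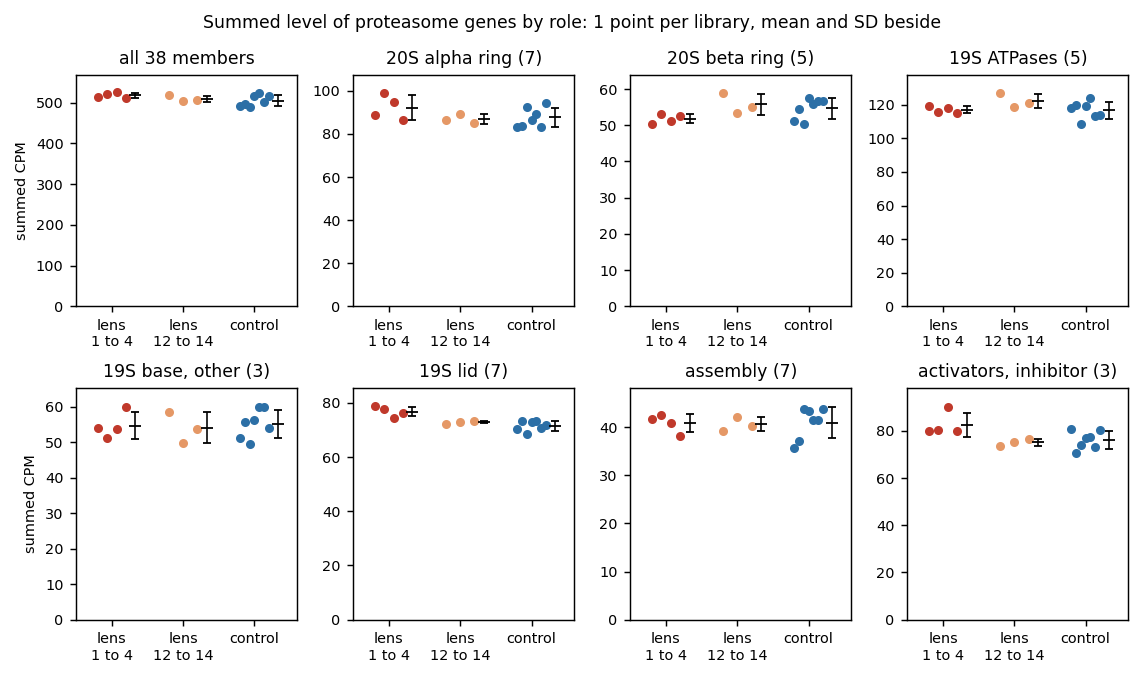
Summed CPM of all 38 members and of each role by library, 1 point per library, with the mean and SD beside each group, for lens libraries 1 to 4, lens libraries 12 to 14 and controls. The total stays between 490 and 525 CPM. Among the roles, only the lid sum of lens libraries 1 to 4, at 74.5 to 78.7 CPM on the deposited scale, lies above every control. The gap is narrow, and the sums were not computed with other scalings.

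Lens libraries 12 to 14 against control gave 0 members called by limma, as 0.00% of all genes were, with 1 member higher (PSMC5) and 1 lower (PSMG2) at an unadjusted p under 0.05, where 5.19% of all genes passed. The members' median was 0.02, beside -0.0049 over all genes, with 23 of 38 above 0, beside 48.0% of all genes. The members' median changed sign without control 17 (-0.011) and without lens library 12 (-0.0010), and was 0.035 without control 21 and 0.010 without control 10. The 95% intervals of all 38 fold changes lay within 0.5 of 0 on the log2(CPM + 1) scale, the farthest bounds being -0.47 for PSMA1 and 0.42 for PSMC5. For the lowest members this bounds the change in CPM itself less tightly. After PSMC5 and PSMG2, the smallest p-values belonged to the lid gene PSMD7 (20.2 ± 1.92 CPM in these 3 libraries and 18 ± 1.48 CPM in 7 controls, 0.15, adjusted p = 0.966), the beta subunit gene PSMB2 (0.15, adjusted p = 0.966) and the alpha subunit gene PSMA6 (-0.15, adjusted p = 0.981).

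Between the lens sets, 1 to 4 against 12 to 14, limma called 0 of 38 members, where 5.01% of all genes were called, 3.53% higher and 1.47% lower. The sets also differed in the level of genes on chromosome W, high in most of the first and low in most of the second, as described under the last heading. At an unadjusted p under 0.05 there were 7 of 38 members, 4 higher and 3 lower, where 24.7% of all genes passed. The members' median was 0.06, beside 0.04 over all genes, with 27 of 38 above 0, beside 58.4% of all genes. The members' median was 0.032 without lens library 3 and 0.037 without lens library 13, and 0.015 with median-of-ratios or trimmed mean scaling. Of the 14 retinal markers, 14 were above 0 between the sets, with a median of 0.26, and 2 were called higher; against control, 12 of the 14 were below 0 in lens libraries 12 to 14, with none called by limma and 2 lower at an unadjusted p under 0.05. The part of these markers in the members' values was not tested. The sets did not overlap for 9 members: PSMA1, PSMA6, PSMC2, PSMD9, PSME4 and PSMF1 were higher in lens libraries 1 to 4, where 15.5% of all genes were, and PSMA7, PSMB1 and PSMC6 were lower, where 7.57% were. Neither PSMA4 nor PSMD9 was shown to differ between the sets by the test: PSMA4 had 0.17 (95% interval -0.04 to 0.38, adjusted p = 0.288) and PSMD9 0.29 (0.04 to 0.55, adjusted p = 0.154).

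The smallest p between the sets was that of PSMC6, at -0.20 (95% interval -0.32 to -0.07, adjusted p = 0.0719). PSMA6, whose product is another alpha subunit, had 7.95, 7.93, 7.68 and 7.82 CPM in lens libraries 1 to 4 and 6.62, 6.71 and 5.95 CPM in lens libraries 12 to 14 (0.25, adjusted p = 0.108). Controls spread over both, at 5.52 to 8.26 CPM. PSMB1, at 21.6, 23, 19.95 and 21.7 CPM in lens libraries 1 to 4 and 26.1, 25.0 and 24.5 CPM in lens libraries 12 to 14, had -0.22 (adjusted p = 0.103). The alpha subunit gene PSMA1 had 16.1, 21.9, 20.4 and 17 CPM in lens libraries 1 to 4 and 14.4, 15.7 and 14.9 CPM in lens libraries 12 to 14 (0.30, adjusted p = 0.125), and its controls ranged more widely still, at 13.5 to 22.6 CPM.

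**Figure D4:**
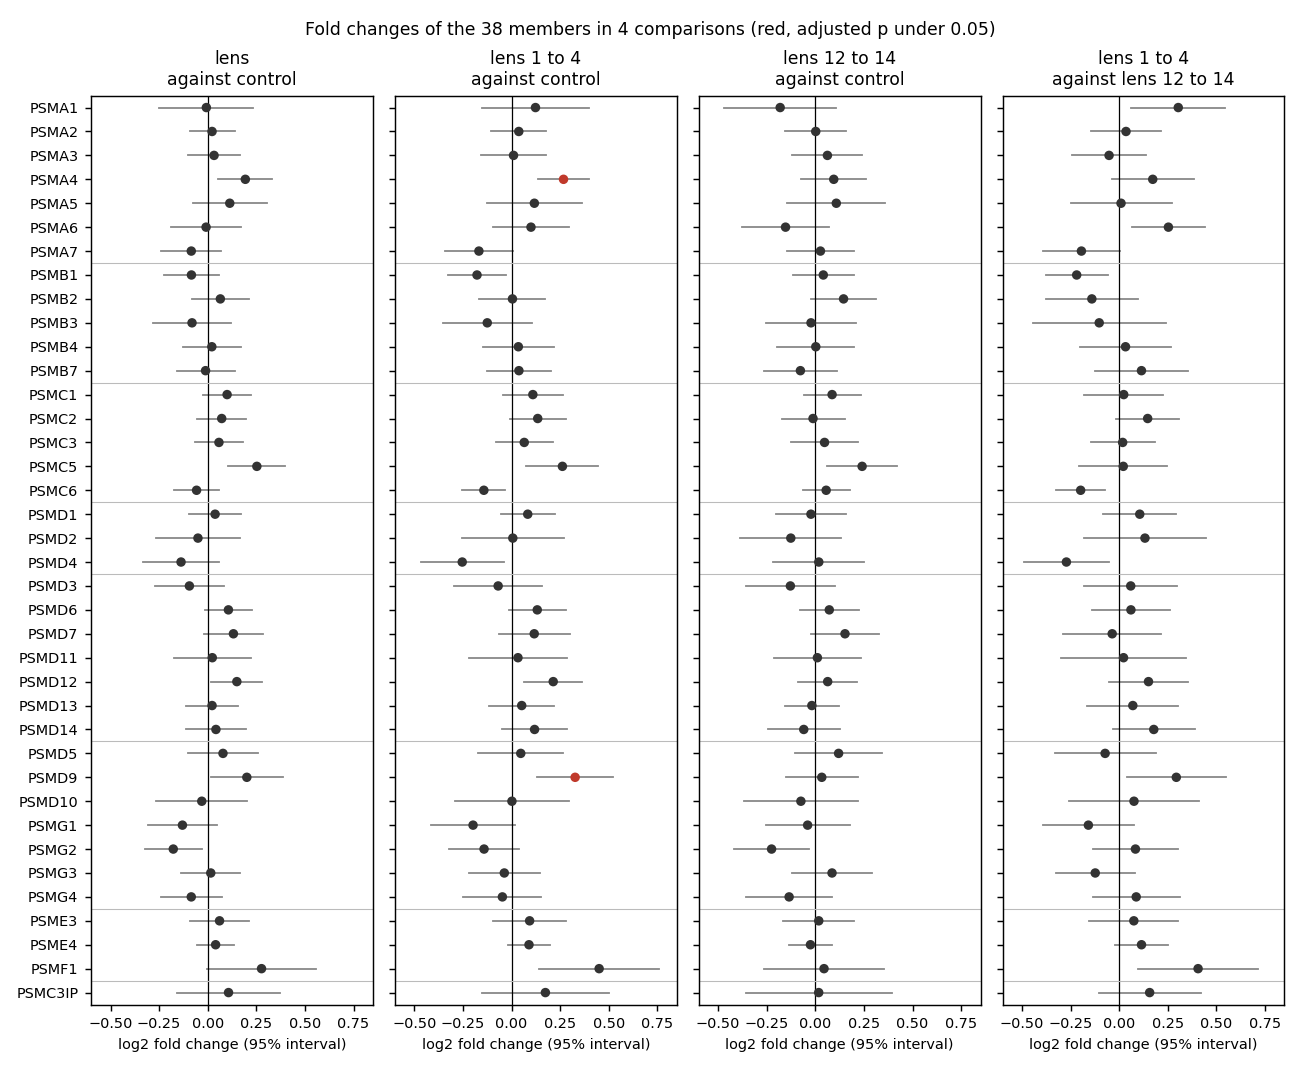
Log2 fold changes of the 38 members with 95% intervals in the 4 comparisons, the group named first over the second, from limma on log2(CPM + 1), with genes ordered by role. Only PSMA4 and PSMD9 in lens libraries 1 to 4 against control, in red, have an adjusted p under 0.05, and nearly all intervals stay within 0.5 of 0.

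The 3 comparisons with controls share the same 7 control libraries, so their values are not independent of each other. The members called in lens libraries 1 to 4 hold in every alternative run for PSMA4 (23 of 23, adjusted p 0.00585 to 0.0490) and in 19 of 23 for PSMD9 (adjusted p 0.0129 to 0.103). Scaling by the median of ratios or by trimmed means (TMM) left the count of higher members at 2 and gave 3 lower ones, PSMB1, PSMC6 and PSMD4. With these scalings the calls over all genes split into 745 higher of 1485 and 733 higher of 1494, and with quantiles into 773 of 1523, beside 1034 of 1480 on the deposited scale.

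Genes that work with the proteasome were described beside it. Of 15 associated genes tested, lens libraries 1 to 4 had 1 higher and 1 lower than controls, where 9.40% of all genes were called higher and 4.05% lower, with a median of -0.05. AKIRIN2, which in human cells brings proteasomes into the nucleus, averaged 12.2 ± 0.838 CPM in lens libraries 1 to 4 and 9.85 ± 0.657 CPM in controls (0.29, adjusted p = 0.0185). UBQLN1, a shuttle that carries ubiquitin-tagged proteins to the proteasome, averaged 19.9 ± 2.93 and 29.8 ± 5.62 CPM (-0.55, adjusted p = 0.0138). Both also differed between the lens sets, by 0.37 (adjusted p = 0.0499) and -0.63 (adjusted p = 0.0221), with 9.26 ± 0.781 CPM of AKIRIN2 and 31.3 ± 3.71 CPM of UBQLN1 in lens libraries 12 to 14. UBQLN1 passed against control in 23 of 23 alternatives and AKIRIN2 in 21 of 23, failing without lens library 2 (adjusted p = 0.0544) or 3 (adjusted p = 0.0533). Between the sets, UBQLN1 passed in 13 of 19 alternatives (lowest adjusted p 0.00394) and AKIRIN2 in 6 of 19 (adjusted p 0.0172 to 0.146); leaving out any one of the 7 libraries ended the call of AKIRIN2, and leaving out lens library 1, 2, 3, 12 or 14 ended that of UBQLN1.

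Of 12 genes of the NFE2L1 pathway, 0 were called in lens libraries 1 to 4 by limma and 2 had an unadjusted p under 0.05, where 13.4% and 30.2% of all genes did. NFE2L1 itself averaged 15.4 ± 1.43 CPM in these 4 libraries and 12.8 ± 1.11 CPM in controls (0.24, adjusted p = 0.0512). NFE2L1 passed in 3 of 23 alternatives (adjusted p 0.0293, without control 21, to 0.131). SEL1L, a component of the complex that moves proteins out of the endoplasmic reticulum, had 0.13 (adjusted p = 0.140). SEL1L passed in 2 of 23 alternatives (adjusted p up to 0.367), among them that without lens library 4 (adjusted p = 0.0361). Of 14 genes of ubiquitin and its activation, 0 were called and 3 had an unadjusted p under 0.05, beside the same shares of all genes. The median fold changes of these lists were 0.03 and 0.07, beside 0.04 over all genes.

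The segregase VCP pulls tagged proteins out of complexes for the proteasome, and 2 of 11 genes for VCP and its cofactors rose in lens libraries 1 to 4, where 9.40% of all genes did, with a median of 0.17. NSFL1C, a VCP cofactor, had 0.27 (adjusted p = 0.0170) and DERL2, a membrane partner in the disposal of misfolded secretory proteins, 0.24 (adjusted p = 0.0403). Among 18 autophagy genes, which serve the other main disposal route, 2 rose, a share near the 9.40% of all genes: the cargo receptor gene SQSTM1 by 0.30 (adjusted p = 0.0334) and GABARAPL1, for an autophagosome coat protein, by 0.16 (adjusted p = 0.0373). NSFL1C passed in 21 of 23 alternatives, failing without lens library 3 (adjusted p = 0.0649) or 2, and SQSTM1 in 16 of 23 (adjusted p up to 0.116). DERL2 passed in 10 of 23 (adjusted p up to 0.128) and GABARAPL1 in 12 of 23 (adjusted p up to 0.105), and neither passed with median-of-ratios or trimmed mean scaling. Lens library 2 or 3, left out alone, ended each of these 4 calls. So did lens library 1 for DERL2 and GABARAPL1, lens library 4 for SQSTM1, control 10 for DERL2, control 17 for SQSTM1, control 19 for DERL2 and GABARAPL1, control 18, 22 or 23 for all 3. Of 20 cytosolic chaperone genes, 10 fell and 1 rose in the same comparison, where 4.05% of all genes fell and 9.40% rose, with a median of -0.26; HSP90AA1, the inducible HSP90, averaged 267 ± 38 CPM in lens libraries 1 to 4 and 557 ± 89.4 CPM in controls (-1.05, adjusted p = 0.000576), and passed in 23 of 23 alternatives. Between the lens sets, limma called 7 of the 20 chaperones lower, where 1.47% of all genes were, and 0 higher; of the autophagy, VCP, NFE2L1 and ubiquitin lists it called 0 genes, with 5, 2, 2 and 4 at an unadjusted p under 0.05, where 24.7% of all genes passed. In lens libraries 12 to 14 against control, 0 genes of these lists were called, and at an unadjusted p under 0.05 there were 1 in the VCP list, 1 among the chaperones and 0 in the other lists, where 5.19% of all genes passed. Over all 7 lens libraries against control 0 were called, with 10 of the chaperones, 5 of the VCP list, 2 of the autophagy genes, 1 of the associated genes and 0 of the others at an unadjusted p under 0.05, where 14.7% of all genes passed.

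**Figure D5:**
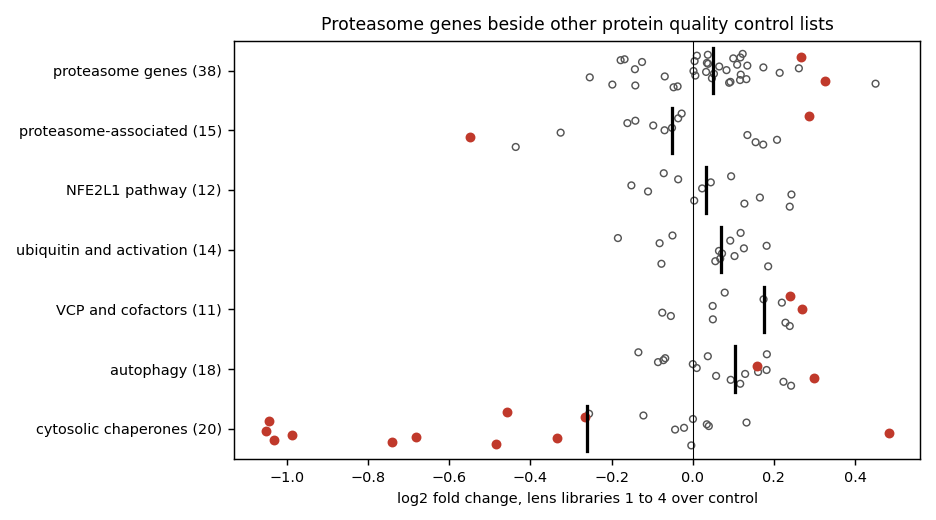
Log2 fold changes in lens libraries 1 to 4 over control for the 38 proteasome genes and 6 lists of related genes, 1 point per gene, filled red where the adjusted p is under 0.05, with a bar at each median. The proteasome genes lie between -0.25 and 0.45 around a median of 0.05, while the cytosolic chaperones reach -1.05.

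Some members share their position with other listed genes, and the sources used here do not say whether reads were counted by strand. Of the 38, 8 overlap another gene, 3 of them on the same strand. FAM134C covers 39.4% of the span of PSMC3IP on the same strand and averaged 21.7 CPM, against 2.16 CPM for PSMC3IP, so the value of PSMC3IP is uncertain. DNAJC2 overlaps 35.4% of PSMC2 on the other strand at 8.08 CPM. HTR2B, which overlaps 23.5% of PSMD1, averaged 0.0916 CPM. PSMA4 and PSMD9 overlap no listed gene.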

How the data were processed

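RNA sequencing of 14 chicken retinas was analysed from the table the authors deposited, which holds 1 CPM column per library and 0 columns of other series. STAR, Partek and the build GRCg6a are named in the submitters' processing notes, with no role or version, and the sources used here do not describe the counting. The values were read as CPM from the file itself: less a constant of 0.0001 in every cell, 94.1% to 95.3% of the low values in each library were whole multiples of 1 step within 0.05 steps, which gave the read totals. That share being too low to recover counts, count models were not used.

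The 11005 genes whose mean reached 1 CPM were tested as log2(CPM + 1) with limma 3.58.1 in R 4.3.3, two-sided, with a trend of variance on level, Benjamini-Hochberg adjustment over all genes and a threshold of 0.05, each comparison on its own libraries. The log2(CPM + 1) scale understates the change of low genes. The procedure was run on simulated data, where a limit was set only on the mean estimate of changes larger than any member showed. Its outcome for smaller changes is not given here. Intervals are 95% intervals of that fit. The members and lists were chosen with earlier results of these data known. Named were members past the threshold, the 5 of smallest p in each comparison, the catalytic subunits, and the extremes by mean CPM and by SD over controls; from each list, the called members or those of smallest p. PSMD4, PSMA7 and PSMC2 were named after their values were seen. Alternatives covered pseudocount, filter, scaling, variance and library weights, covariates, a joint fit and each library left out. Counts without PSMC3IP were added after seeing the data. Of the symbols, 15419 matched a RefSeq table of GRCg7b, all 38 members among them. That table gave gene identifiers and chromosome names, each sequence taking the commonest chromosome of its matched genes. The W-linked genes rest on these names, while positions are as deposited. Gene lengths and sequences were not used here.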

Additional observations from a re-analysis of the deposited data

Results flagged for a closer look

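Of 60 groups of member values examined, 3 had a library that stood apart, and chance flags about 5% of groups. PSMD7, the lid subunit gene, had 21 CPM in control 17, beside 16.6 to 18.4 CPM in the other control libraries. PSMD1, the base scaffold gene, had 28.7 CPM in lens library 13, beside 33.3 to 36.8 CPM in the other lens libraries. PSMC3IP had 1.98 CPM in lens library 3, beside 2.52 to 2.56 CPM in the other 3 of lens libraries 1 to 4. None of these 3 genes was called in any of the 4 comparisons.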

How the results depend on the processing

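No paired analysis was possible because lens and control titles share no number. The count of members called in lens libraries 1 to 4 against control, 2 on the deposited scale, was 5 with median-of-ratios or trimmed mean of M values scaling (2 higher, 3 lower), 4 with quantiles (1 higher, 3 lower), 5 with library weights (4 higher, 1 lower), 4 with W-linked expression in the model (2 higher, 2 lower) and 5 in a joint fit of all 14 libraries (5 higher). Of all 11005 genes, 1485, 1494, 1523, 2097, 1526 and 1756 were called in these runs, in that order, beside 1480 on the deposited scale. Leaving out 1 library gave 1 to 4: 1 without lens library 2, lens library 3 or control 17, and 4 without control 10, which adds PSMD4 and PSMF1. Of all genes, 911, 724, 1152 and 1636 were called in these runs, in that order. Between the lens sets the count, 0, was 1 with either of the first scalings and in the joint fit (PSMC6, lower) and 2 with library weights (PSMA1 and PSMC6). Of all genes, 454, 456, 906 and 1239 were called in these runs, in that order, beside 551 on the deposited scale. Leaving out 1 library gave 0 to 0, where 9 to 807 of all genes were called. The members' median there, 0.06, was 0.0093 after quantile normalization. No alternative called a member in lens against control or in lens libraries 12 to 14 against control. PSMD9 did not pass with quantiles (adjusted p = 0.0520). Of 2476 alternatives for 112 single-gene values, 88 changed sign, none past the threshold. The filter at a mean of 5 CPM leaves out the low members, PSMF1 among them. The cause of these shifts was not tested.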

Other observations

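The labels give no sex, and the summed level of W-linked genes was 604 to 644 CPM in 4 lens libraries and 1.88 to 3.11 CPM in the other 3, and 650 to 655 CPM in 3 controls and 1.54 to 2.66 CPM in the other 4. Lens libraries 1, 2, 3 and 13 had the high level, and lens libraries 4, 12 and 14 the low one. Most of the first lens set was thus high and most of the second low. With the W-linked level in the model, 1448 genes were called between the lens sets, beside 551 without it, and 0 members in both. In lens libraries 1 to 4 against control, that model added PSMA7 and PSMC6, both lower. The summed level of the 38 members was 504 to 525 CPM in the 4 lens libraries with the high W-linked level and 507 to 518 CPM in the 3 with the low one. In controls it was 516 to 523 CPM in the 3 with the high level and 490 to 501 CPM in the 4 with the low one. The median of all genes against the control mean was -0.02 to 0.06 on the log2 scale in the 4 lens libraries with the high level and -0.0083 to 0.04 in the other 3, and it was 0.03 to 0.05 in the 3 controls with it and -0.05 to 0.02 in the other 4. The part of this in the members' sums was not tested.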
